A study of Mus musculus with 6 samples.

Results

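The Notch pathway was described here through 10 of its genes in MC3T3-E1, a line of mouse calvarial pre-osteoblasts. These were the receptor genes Notch1, Notch2, Notch3 and Notch4, the ligand genes Jag1, Jag2 and Dll1, and the target genes Hes1, Hey1 and Heyl. They were chosen by name as pathway members, with earlier results of these data known, and each was matched by its Ensembl identifier among the 53801 genes of the count tables. Cells infected with a lentivirus carrying a scrambled, non-silencing hairpin (Control, 3 libraries) were compared with cells infected with a virus carrying an Hdac4 hairpin (Hdac4-knockdown, 3 libraries), to ask how the transcriptome changed when Hdac4 was reduced. Both groups carried the same vector with ZsGreen1 and puromycin resistance and were selected with 5 μg/mL puromycin for 7 days. The labels call the hairpin Hdac4-shRNA, and the paper's text gives it as Hdac4-shRNA3. Per the labels, 3 independent RNA samples were prepared from each infected, selected line, and separate infections are not described. The p-values thus measure the spread between RNA samples of a line, and an effect of the hairpin cannot be told apart from other differences between the infected lines.

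Notch signaling passes between neighboring cells. A ligand of the Jagged or Delta family on one cell binds a Notch receptor on the next, the receptor is cut first by an ADAM protease and then by γ-secretase, and the released intracellular domain joins the DNA-binding protein Rbpj and a Mastermind coactivator to switch on genes of the Hes and Hey families, which encode basic helix-loop-helix repressors. In the skeleton, the pathway is best known for holding mesenchymal progenitors back from osteoblast differentiation, and human mutations in NOTCH2 and JAG1 cause syndromes with skeletal defects. Notch3 is typical of the mural cells of vessels and of muscle satellite cells, and Notch4 of endothelium.

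The agent that separates the groups is shown first, since all comparisons depend on it. The 21-base Hdac4-shRNA3 target, as given in the labels, was found in 3 of the 12 Hdac4 transcripts of GENCODE M21 and in 0 transcripts of other genes. It lies in the coding sequence on the minus strand of GRCm38, chr1:92029965-92029985, in exon 4 of Hdac4-202.
Hdac4-shRNA3 target: gcatgaggcacagttgcatga

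The longest stretch of this sequence that any transcript of the 10 Notch genes held was 10 bases, in Notch2, and 7 or 8 bases in the others. Hdac4 itself was counted 1243, 1204 and 1136 times in the Control libraries and 950, 927 and 887 times in the Hdac4-knockdown libraries, and was at 73.6% of the Control level (log2 fold change -0.44, SE 0.057, adjusted p = 8.98e-07).

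Promoter sequences, from RefSeq on GRCm38.p6, covered 250 bases before and 50 bases after the start of 7 of the 10 genes in 8 windows, since Dll1 had 2 starts. Hes1, Hey1 and Heyl had no entry. The upstream parts of Jag1, Notch3 and Notch4 are shown because these genes changed strongly in different directions (values below), cut where annotated exons begin, 5′ to 3′ on the strand of the gene, with CG dinucleotides in capitals. The Jag1 stretch is the minus strand of chr2:137116645-137116770, the Notch3 stretch the minus strand of chr17:32166891-32167140, and the Notch4 stretch the plus strand of chr17:34564045-34564267.
Jag1: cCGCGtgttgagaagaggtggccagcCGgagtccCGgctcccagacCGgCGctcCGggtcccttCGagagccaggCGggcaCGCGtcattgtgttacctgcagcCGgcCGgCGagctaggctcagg
Notch3: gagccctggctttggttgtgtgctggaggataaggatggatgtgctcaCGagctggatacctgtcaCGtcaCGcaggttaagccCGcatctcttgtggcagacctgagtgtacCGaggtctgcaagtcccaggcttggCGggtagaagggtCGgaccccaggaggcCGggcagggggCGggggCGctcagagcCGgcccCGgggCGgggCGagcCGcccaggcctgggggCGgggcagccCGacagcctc
Notch4: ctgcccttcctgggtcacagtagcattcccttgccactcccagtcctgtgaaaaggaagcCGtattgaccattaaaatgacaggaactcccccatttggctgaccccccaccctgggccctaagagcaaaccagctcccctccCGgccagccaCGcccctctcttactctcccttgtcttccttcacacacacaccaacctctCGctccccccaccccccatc

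The Notch4 window of 300 bases held 5 CG dinucleotides, against 25 for Notch3, 22 for Jag1 and 63 for Jag2, where the median of 32851 mouse windows was 7. The GC content was 58.3% for Notch4, 70% for Notch3, 55.7% for Jag1 and 86% for Jag2, with a median of 52.7% over all windows. The core motif of Rbpj, TGGGAA on either strand, was in 0 of the 8 windows and in 25.6% of all windows. The Runx motif TGTGGT and the MEF2 motif were also in 0 of the 8, against 16.8% and 3.19% of all windows. The E-box CAGCTG, which reads the same on both strands, was in 2 of the 8, at Jag1 and at 1 start of Dll1, against 16.3% of all windows. None of these motifs contains another, and a missing match says only that the letters are not in this window.

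Between 29096544 and 31651826 reads were counted on genes per library. Counts were normalized by the TMM method of edgeR to CPM (counts per 1000000 of the effective library total) and compared by its quasi-likelihood F test, with Benjamini-Hochberg adjustment over the 14531 genes with enough counts to be tested. A gene was called when its adjusted p was below 0.05 and its log2 fold change was larger than 0.05 in either direction. The labelled cell type was checked against marker lists. Of 11 osteoblast markers, 8 were tested. In Hdac4-knockdown libraries 6 were called higher and 1, Spp1, lower, against 38% and 37.1% of all genes tested, and Phex was not called. Among the 6, Dlx5 had 4, 8 and 5 counts in Control and 227, 266 and 282 in Hdac4-knockdown libraries. Sp7 had 4, 7 and 2 against 74, 112 and 68. Both had enough counts to be tested only through the Hdac4-knockdown libraries. Of the markers not tested, Alpl had 0, 0 and 3 against 2, 0 and 3 counts. Ibsp had 0, 0 and 0 against 4, 6 and 7, and Bglap 0, 1 and 1 against 3, 12 and 6. The summed level of the 11 markers was 4795 to 4808 CPM in Control and 21489 to 22321 CPM in Hdac4-knockdown libraries. The rise of the sum came from the collagen genes Col1a1, from a mean of 338 to 11015 CPM, and Col1a2, from 1213 to 8572 CPM. Spp1, the largest part of the Control sum, fell from 3154 to 2046 CPM. All 7 skeletal muscle markers were called lower, from a sum of 157 to 168 CPM to one of 26.5 to 29.9 CPM, and Myod1, a master regulator of muscle, was at 67.9 ± 3.62 CPM (SD, n = 3) in Control and 8.96 ± 0.835 CPM (SD, n = 3) in Hdac4-knockdown libraries. In these bulk samples, fewer cells of a type and less RNA per cell cannot be told apart. Of 5 macrophage markers, 2 were tested. Csf1r, at 3, 4 and 6 counts in Control and 19, 23 and 22 in Hdac4-knockdown libraries, was called higher, and Cd68 was not called. Csf1r had enough counts to be tested only through the Hdac4-knockdown libraries. In Control against Hdac4-knockdown libraries, Ptprc had 0, 0 and 1 against 9, 1 and 2 counts. Fcgr1 had 3, 1 and 0 against 5, 7 and 11, and the defining gene Adgre1 had 0 counts in all libraries. The part of these marker changes in the Notch results was not tested.

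Both the receptors and the ligands differed in makeup between the groups. Notch3 and Jag2 were the abundant genes that fell most, and Jag1 rose and became the leading ligand gene. Notch4 rose from a low level, 23 counts or fewer per Control library, and the target genes Hes1 and Hey1 fell. All 10 Notch genes passed the filter on low counts, and 9 were called, against 75.1% of all genes tested. Of these, 4 were higher (38% of all genes) and 5 lower (37.1% of all genes) in Hdac4-knockdown libraries. Notch4, at 21, 23 and 5 counts in Control libraries, passed the filter only through its Hdac4-knockdown libraries, where it was high. A log2 fold change beyond 1 in size was reached by 5 of the 10, Notch3, Notch4, Jag1, Jag2 and Hey1, against 27.1% of all genes. Regardless of sign, the median log2 fold change was 1.04 over the 10 genes and 0.46 over all genes tested, and with its sign it was -0.42 and 0.01. The libraries of the groups did not overlap for 9 of the 10 genes, against 76.8% of all genes. With 3 libraries against 3, a two-sided exact permutation test cannot give a p below 0.1, which these 9 genes reached, and Notch1, whose groups overlapped, gave p = 0.3 in the same exact test.

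**Figure D1:**
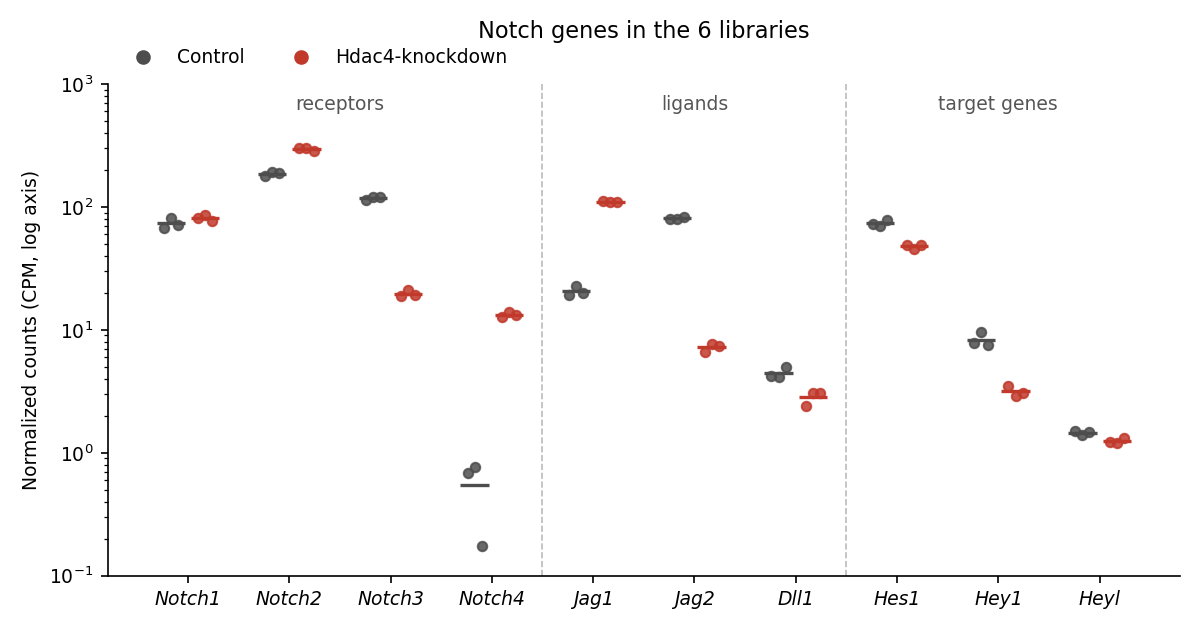
Normalized counts (CPM, log axis) of the 10 Notch genes in each library, with Control in grey and Hdac4-knockdown in red; points are libraries and lines are group means of 3. Jag1 and Jag2 exchange places, with Jag1 rising from 20.6 to 110 CPM and Jag2 falling from 81.2 to 7.25 CPM, whereas the Notch1 points of the groups overlap.

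**Figure D2:**
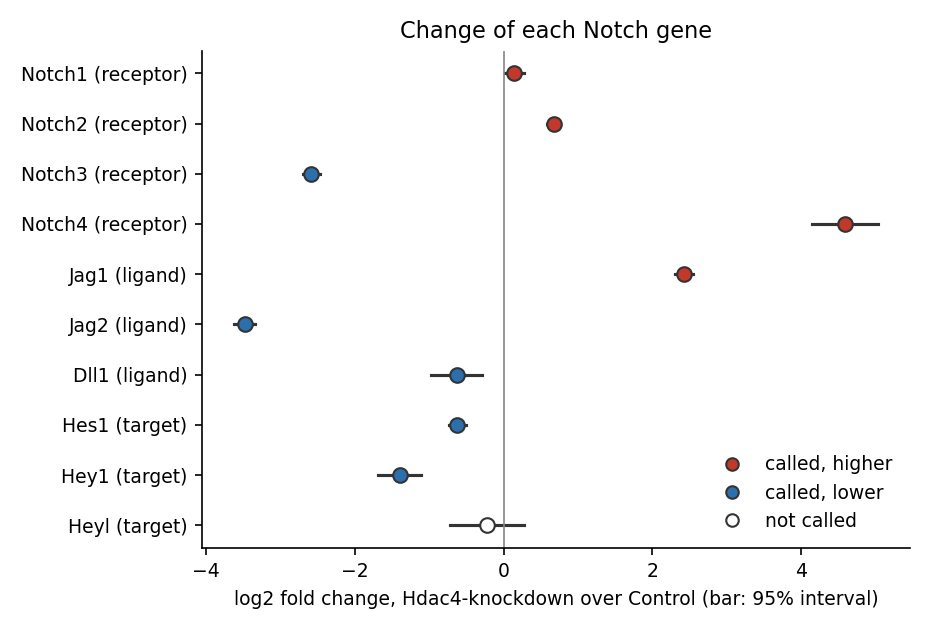
Log2 fold change of Hdac4-knockdown over Control for each Notch gene from the edgeR fit, with its 95% interval as a bar; red is called higher, blue called lower and white not called. Notch4 at 4.59 and Jag2 at -3.48 lie farthest from 0, and the interval of Heyl, -0.72 to 0.28, includes 0.

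Among the receptors, Notch3 fell, Notch2 and Notch4 rose, and Notch1 rose slightly. Notch3 (ENSMUSG00000038146; GRCm38, as for all positions given here, chromosome 17, 32120820 to 32166852) was at 115, 121 and 120 CPM in the Control libraries and 18.7, 21 and 19.4 CPM in the Hdac4-knockdown libraries. The highest Hdac4-knockdown library thus lay far below the lowest Control library. Its log2 fold change was -2.59 (SE 0.0552, edgeR adjusted p = 5.83e-19), a level 6.01-fold lower, which ranked 147 by p-value and 1209 by size among the genes tested.

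Notch2 (ENSMUSG00000027878; chromosome 3, 98013527 to 98150361), the receptor most often linked to bone, was at 179, 192 and 188 CPM in the Control libraries and 303, 304 and 288 CPM in the Hdac4-knockdown libraries. The groups did not overlap, and the increase was 1.6-fold (log2 fold change 0.68, SE 0.0418, adjusted p = 1.50e-11). Notch1 (ENSMUSG00000026923; chromosome 2, 26457903 to 26516663), a receptor often mutated in T cell leukemia, was at 68, 80.8 and 71.4 CPM in Control and 80.7, 85.5 and 77.1 CPM in Hdac4-knockdown libraries. Control replicate 2 lay above 2 of the 3 Hdac4-knockdown libraries. Its log2 fold change of 0.14 (95% interval 0.02 to 0.27) had an adjusted p of 0.0346 in edgeR, which rose to 0.263 without Control replicate 1, 0.158 without Control replicate 3 and 0.104 without Hdac4-knockdown replicate 2.

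Notch4 (ENSMUSG00000015468; chromosome 17, 34564268 to 34588503) was counted only 21, 23 and 5 times in the Control libraries and 396, 456 and 394 times in the Hdac4-knockdown libraries, or 0.687, 0.768 and 0.175 CPM against 12.8, 14.1 and 13.1 CPM. It was at low counts in every Control library and clearly present in every Hdac4-knockdown library. The log2 fold change was 4.59 (SE 0.209, 95% interval 4.15 to 5.03, adjusted p = 1.08e-13), or 24.1-fold, and leaving out 1 library at a time gave 4.18 to 4.90. Of 11 endothelial markers, 3 were tested and 2 were called higher, against 38% of all genes tested. These were Pecam1, from 0.214 ± 0.0189 to 2.38 ± 0.0949 CPM (SD, n = 3), and Vwf, from 0.192 ± 0.0861 to 3.11 ± 0.568 CPM (SD, n = 3). Both had 8 counts or fewer in each Control library and enough counts to be tested only through the Hdac4-knockdown libraries. Being tested thus already implied a higher level there. The defining endothelial genes Cdh5, Tie1 and Erg were not tested, with Cdh5 at 0, 1 and 0 counts in Control and 3, 8 and 9 in Hdac4-knockdown libraries, Tie1 at 0 in all Control and 9, 4 and 1 in Hdac4-knockdown libraries, and Erg at 0 in all Control and 1, 6 and 0 in Hdac4-knockdown libraries. Their few counts were thus nearly all in Hdac4-knockdown libraries, and Emcn had 0 counts in all. The other tested marker, Egfl7, did not rise (log2 fold change -0.11, edgeR adjusted p = 0.858). Tek, Kdr, Esam and Robo4 were also not tested. In Control against Hdac4-knockdown libraries, Tek had 2, 2 and 5 against 10, 4 and 10 counts. Kdr had 0, 2 and 1 against 2, 7 and 1, and Esam 1, 4 and 2 against 15, 3 and 2. Robo4 had 0, 0 and 0 against 0, 1 and 1. The summed level of the list was 0.842 to 1.07 CPM in Control and 6.15 to 7.23 CPM in Hdac4-knockdown libraries. The part of endothelial markers in the Notch4 result was not tested.

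Muscle and mural markers were read beside Notch3. All 7 skeletal muscle markers fell with it, among them the myogenic regulator Myf5, from 26.9 ± 1.7 to 3.19 ± 0.556 CPM (SD, n = 3; log2 fold change -3.07, edgeR adjusted p = 1.82e-15). The satellite cell gene Pax7 was counted 28, 21 and 44 times in Control and 0, 1 and 0 times in Hdac4-knockdown libraries (adjusted p = 3.64e-07), at least 10.9-fold lower when each Hdac4-knockdown library is set to 3 counts. Pax7 had enough counts to be tested only through the Control libraries. Of 10 mural markers, 5 were tested, and 2 were called higher and 2 lower, against 38% and 37.1% of all genes tested. Mcam was not called (log2 fold change -0.44, edgeR adjusted p = 0.255). Kcnj8 had 0 counts in all libraries. In Control against Hdac4-knockdown libraries, Rgs5 had 1, 1 and 0 against 6, 8 and 10 counts. Myh11 had 2, 4 and 2 against 10, 9 and 14. Abcc9 had 3, 3 and 0 against 2, 0 and 0, and Higd1b 0, 9 and 4 against 1, 2 and 0. Cspg4 rose from a mean of 51.6 to 443 CPM and Pdgfrb from 139 to 492 CPM. Acta2 fell from 312 to 148 CPM and Des from 737 to 102 CPM. The summed level of the mural list was 1218 to 1260 CPM in Control and 1165 to 1227 CPM in Hdac4-knockdown libraries. These similar sums thus held large changes in opposite directions. The part of muscle and mural markers in the Notch3 result was not tested.

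To compare receptors with each other, CPM was divided by the kilobases of annotated exon of each gene. On this scale Notch2 led in both groups, at 17.3 ± 0.604 CPM per kb (SD, n = 3) in Control and 27.7 ± 0.839 CPM per kb (SD, n = 3) in Hdac4-knockdown libraries. Notch3 was second in Control libraries, at 14.6 ± 0.355 CPM per kb (SD, n = 3), followed by Notch1 at 5.16 ± 0.465 and Notch4 at 0.0674 ± 0.0399 CPM per kb (SD, n = 3). In Hdac4-knockdown libraries Notch1, at 5.7 ± 0.297 CPM per kb (SD, n = 3), came before Notch3, at 2.43 ± 0.148, and Notch4, at 1.66 ± 0.0882 CPM per kb (SD, n = 3). Neighbors in these orders did not overlap between libraries of a group. In every library Notch2 exceeded Notch3, by 1.17 to 1.2 times in Control and by 10.9 to 12.2 times in Hdac4-knockdown libraries.

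The sum of the 4 receptors per kb was 35.8 to 38.5 CPM per kb in Control and 36.1 to 38.6 CPM per kb in Hdac4-knockdown libraries, so the ranges nearly coincided while the makeup differed. Notch3 made up 39.4% ± 0.603 (SD, n = 3) of the receptor sum in Control and 6.5% ± 0.319 (SD, n = 3) in Hdac4-knockdown libraries. Notch2 went from 46.6% ± 0.26 to 73.9% ± 0.72 and Notch4 from 0.181% ± 0.107 to 4.42% ± 0.178 (SD, n = 3 in each group). These shares assume that each annotated exon base can give reads, and were given no test.

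**Figure D3:**
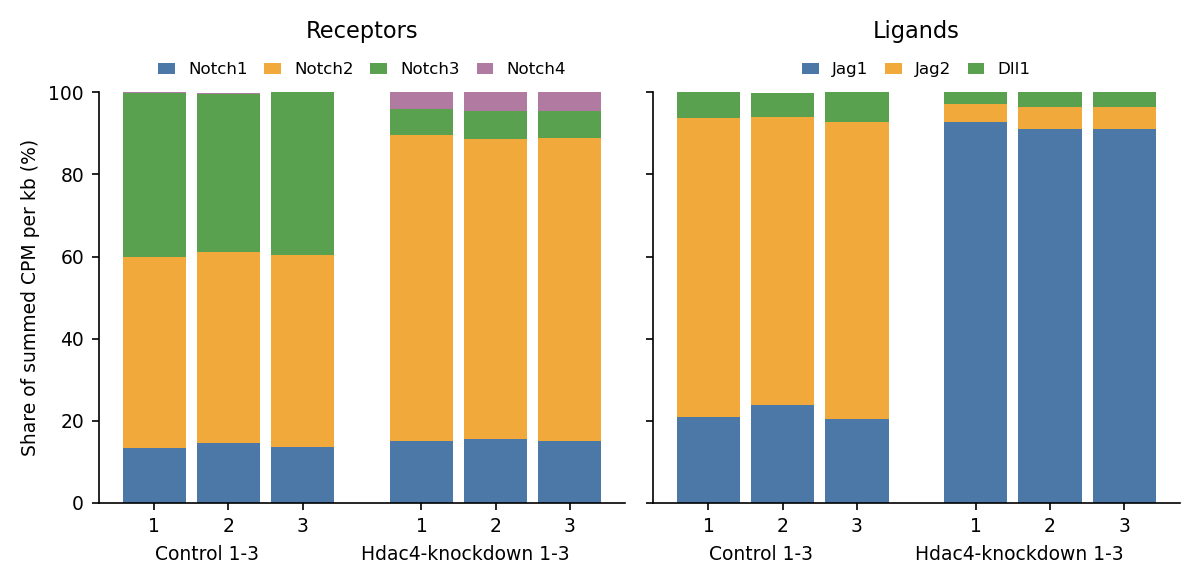
Share of the summed CPM per kb (percent, from 0 to 100) taken by each receptor gene (left) and each of the 3 ligand genes (right) in every library; each bar is 1 library. Notch3 shrinks from 39.4% to 6.5% of the receptors and Jag1 grows from 21.7% to 91.7% of the ligands.

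Among the ligands, Jag1 rose and Jag2 fell, both by more than 5-fold, and Dll1 fell less. Jag1 (ENSMUSG00000027276; chromosome 2, 137081456 to 137116644), the Jagged ligand linked to Alagille syndrome, was at 19.1, 22.8 and 19.8 CPM in the Control libraries and 112, 110 and 109 CPM in the Hdac4-knockdown libraries. All 3 Hdac4-knockdown libraries were thus far above the Control libraries and close to each other. The increase was 5.37-fold (log2 fold change 2.43, SE 0.0605, adjusted p = 7.24e-18).

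Jag2 (ENSMUSG00000002799; chromosome 12, 112907819 to 112929776), the other Jagged ligand, was at 79.6, 80.5 and 83.4 CPM in the Control libraries and 6.59, 7.73 and 7.44 CPM in the Hdac4-knockdown libraries. It was 11.2-fold lower (log2 fold change -3.48, SE 0.0675, adjusted p = 1.32e-19), and had the smallest p-value of the 10 genes, ranking 108 among the genes tested. Dll1 (ENSMUSG00000014773; chromosome 17, 15367354 to 15376872), a Delta-like ligand needed for somite patterning, was low in both groups, at 4.19, 4.14 and 4.95 CPM in Control and 2.39, 3.07 and 3.09 CPM in Hdac4-knockdown libraries. The groups did not overlap, and the log2 fold change was -0.63 (SE 0.162, 95% interval -0.97 to -0.29, adjusted p = 0.00168).

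Per kilobase of exon, Jag2 exceeded Jag1 by 2.95 to 3.53 times in the Control libraries, and Jag1 exceeded Jag2 by 17.1 to 20.3 times in the Hdac4-knockdown libraries. Dll1 was the lowest of the 3 in every library, with Jag2 at 10.2 to 11.8 times its level in Control and at 1.46 to 1.67 times in Hdac4-knockdown libraries. Jag2 took 71.8% ± 1.38 (SD, n = 3) of the summed ligand level in Control and 5.04% ± 0.419 (SD, n = 3) in Hdac4-knockdown libraries, and the sum itself was 15.7 to 16.5 CPM per kb in Control and 20.5 to 20.8 CPM per kb in Hdac4-knockdown libraries.

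Of the target genes, Hes1 and Hey1 fell and Heyl was not called. Hes1 (ENSMUSG00000022528; chromosome 16, 30064384 to 30067796), a repressor that keeps progenitors undifferentiated in many tissues, was at 72.9, 70.3 and 78.8 CPM in the Control libraries and 49.5, 45.8 and 48.7 CPM in the Hdac4-knockdown libraries. The groups did not overlap, and the level was 64.8% of Control (log2 fold change -0.63, SE 0.0546, adjusted p = 3.33e-09). Hey1 (ENSMUSG00000040289; chromosome 3, 8663359 to 8667256), a related repressor, was at 7.82, 9.66 and 7.54 CPM in Control and 3.49, 2.92 and 3.09 CPM in Hdac4-knockdown libraries. Its level was 38% of Control (log2 fold change -1.40, SE 0.138, adjusted p = 2.12e-08).

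Heyl (ENSMUSG00000032744; chromosome 4, 123233556 to 123249875), the third Hey family member, was counted 46, 42 and 42 times in Control and 38, 39 and 40 times in Hdac4-knockdown libraries, or 1.51, 1.4 and 1.47 CPM against 1.23, 1.21 and 1.33 CPM. Although the groups did not overlap, the log2 fold change of -0.22 had a 95% interval of -0.72 to 0.28 (adjusted p = 0.415), so a difference of this size was not detectable at this depth. On the CPM per kb scale, Hes1 was the highest of the 3 target genes in both groups, at 36.3 ± 2.13 and 23.6 ± 0.964 (SD, n = 3), followed by Hey1 at 2.55 ± 0.351 and 0.97 ± 0.0901 and Heyl at 0.286 ± 0.0102 and 0.246 ± 0.0125 (SD, n = 3, Control and Hdac4-knockdown in turn).

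The rest of the pathway was followed through 49 other genes grouped by role, of which 38 were tested. Of these, 14 were called higher and 14 lower, and 10 were not called, so 73.7% were called, against 75.1% of all genes tested. In the 6 roles with at least 4 genes tested, 62.5% to 77.8% were called. Regardless of sign, their median log2 fold change was 0.27, against 0.46 over all genes tested, and 8 (21.1%) were called beyond 1 in size, against 27.1% of all genes. The other Notch ligands Dll3 and Dll4 had at most 3 counts in any library and Dlk1 had 0, whereas Dlk2, a noncanonical ligand, rose from 0.656 ± 0.241 to 3.79 ± 0.404 CPM (SD, n = 3; log2 fold change 2.53, adjusted p = 1.43e-08). Hes5 had 0 counts in all libraries, Hes2, Hes3, Hes7 and Hey2 had 5 or fewer, and Hes6, a Hes factor of neural and muscle precursors, fell by 1.28 on the log2 scale (adjusted p = 1.10e-10).

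**Figure D4:**
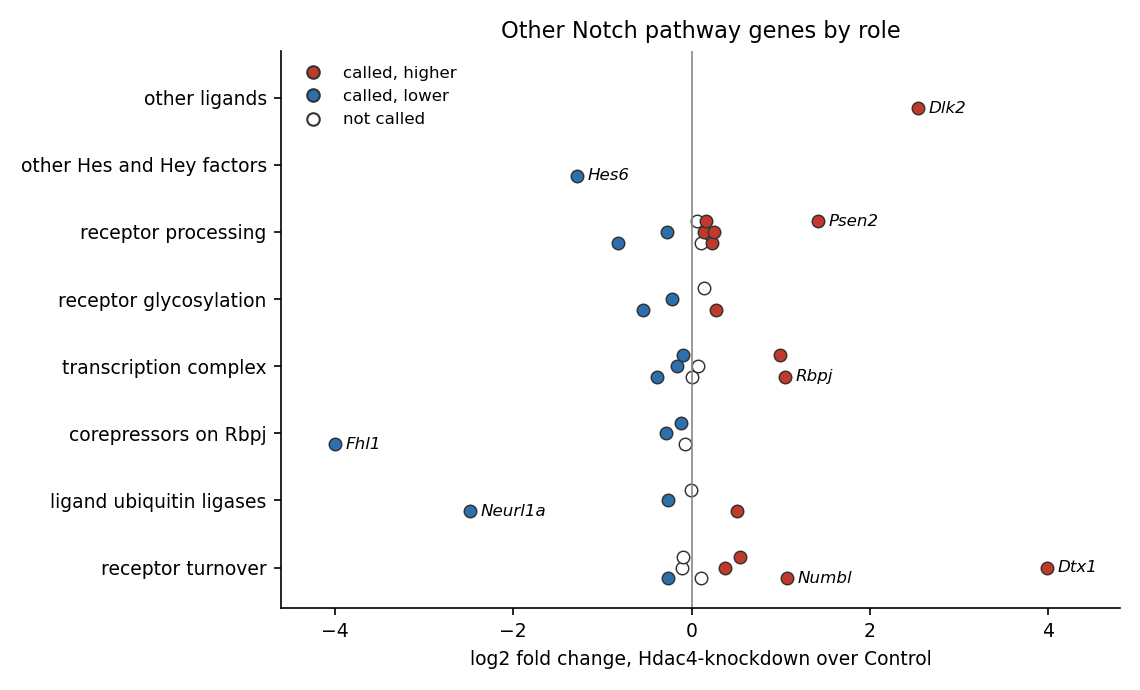
Log2 fold change of Hdac4-knockdown over Control for the 38 other Notch pathway genes tested, by role; red is called higher, blue called lower and white not called, and genes called beyond 1 in size are named. Most points lie near 0, with Fhl1 at -4.00 and Neurl1a at -2.48 on the left and Dlk2 at 2.53 and Dtx1, whose fitted value is uncertain at its low counts, on the right.

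In the nuclear complex, Rbpj was at 80.9, 76.8 and 83.2 CPM in the Control libraries and 167, 165 and 166 CPM in the Hdac4-knockdown libraries. This increase was 2.07-fold (log2 fold change 1.05, SE 0.0441, adjusted p = 2.96e-14). Among the Mastermind coactivators, Maml2 rose (log2 fold change 0.99, adjusted p = 1.38e-10), Maml1 had a log2 fold change of -0.17 (adjusted p = 0.00446) and Maml3 one of 0.00 (95% interval -0.15 to 0.15). Of 4 genes for corepressors that act with Rbpj, 3 were called lower and 0 higher (75% called, against 75.1% of all genes). Fhl1, one of whose splice forms binds Rbpj, had the largest decrease of the 38 genes, from 207 ± 4.11 to 12.9 ± 1.16 CPM (SD, n = 3; log2 fold change -4.00, adjusted p = 2.02e-21), and gene counts do not separate its splice forms.

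Of 10 genes that process the receptors, 5 were called higher, 2 lower and 2 not (77.8% of those tested called, against 75.1% of all genes), and Aph1c was not tested. The γ-secretase gene Psen2 rose 2.66-fold (log2 fold change 1.41, adjusted p = 3.13e-09). Among the sheddases, Adam17 had a log2 fold change of -0.82 (adjusted p = 1.08e-11) and Adam10, which makes the activating cut in Notch, one of 0.14 (adjusted p = 0.0111). Of 5 glycosylation genes, 1 was called higher and 2 lower, none beyond 1 in size (75% of those tested called, against 75.1% of all genes). Rfng was not called and Mfng was not tested. Lfng, a Fringe enzyme that tunes the response to Jagged and Delta ligands, had a log2 fold change of -0.55 (adjusted p = 6.71e-06).

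Of 4 genes for ubiquitin ligases of the ligands, 1 was called higher and 2 lower (75% of those tested, against 75.1% of all genes). Neurl1a fell from 30.6 ± 1.23 to 5.48 ± 0.459 CPM (SD, n = 3; log2 fold change -2.48, adjusted p = 1.17e-15), whereas Mib1, the main ligase for ligand uptake, had a log2 fold change of -0.27 (adjusted p = 0.000165). Of 9 genes of receptor turnover, 4 were called higher and 1 lower (62.5% of the 8 tested, against 75.1% of all genes). Numbl, a relative of the Notch inhibitor Numb, rose 2.1-fold (log2 fold change 1.07, adjusted p = 8.58e-12). Dtx1 was counted 1, 3 and 0 times in Control and 18, 24 and 30 times in Hdac4-knockdown libraries, at least 7.65-fold higher when each Control library is set to 3 counts. Dtx1 had enough counts to be tested only through the Hdac4-knockdown libraries. Nrarp, a feedback inhibitor and direct Notch target, was counted 8, 2 and 5 times in Control and 1, 0 and 0 times in Hdac4-knockdown libraries and was not tested. It shares 2051 of its 2582 exon bases with Gm38287, which had 0 counts. Reads shared between genes were left out of the gene counts, so this 0 does not show how many Nrarp reads were lost.

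Reads from overlapping genes cannot be assigned without strand. Those shared between genes were left out of the gene counts, so few counts of a partner gene do not show that few reads were lost. Of the exon bases of Dll1, 20.5% are shared with A930024N18Rik, which had at most 7 counts in a library, and 9.76% of those of Notch1 with 0610009E02Rik and Gm13568, which had at most 25. Notch2 and Notch3 share 5.02% and 6.03% of their exon bases with other genes, and the remaining 6 members share 0.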

How the data were processed

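RNA from 6 MC3T3-E1 samples, 3 per group, was poly-A selected and sequenced with a kit that does not mark strand. The deposited values are raw counts of reads per Ensembl gene, made by the authors without normalization. The submitters' processing notes name FastQC, STAR 2.7.3a, HTSeq 0.12.4 and build mm10; the annotation release is not given in the sources used here. The summary lines of each table were left out, 3.17% to 5.07% of reads lying outside genes and 5.84% to 6.51% being shared between genes. Of 53801 identifiers, 53706 were matched to GENCODE M21 (GRCm38), which gave symbols, positions and exon lengths.

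Counts were fitted with edgeR 4.0.16 in R 4.3.3 (filterByExpr, TMM, glmQLFit, glmQLFTest, Benjamini-Hochberg over 14531 genes). The code was run on simulated data in which only a small part of the genes changed, none by as little as Notch1. That run does not show how the test behaves when most genes change, as they did here. Genes were called at an adjusted p below 0.05 and a log2 fold change beyond 0.05. Alternatives were other normalizations, filters and fold thresholds, a replicate block, omission of single libraries, limma 3.58.1 (voom) and DESeq2 1.42.0. Single genes were also compared by two-sided exact permutation tests. Replicates of a group differed by more than the sampling noise (chi-square per degree of freedom 3.23 to 8.36). The coefficient of variation between replicates beyond counting noise, which edgeR estimated in common for all genes, was 4.79%. Named genes were the 10 members, Hdac4, Rbpj, pathway genes called beyond a log2 fold change of 1 in size, and examples of each role chosen after their values were seen. The members and lists were chosen with earlier results of these data known. Figures were drawn with matplotlib 3.10.9.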

Additional observations from a re-analysis of the deposited data

Results flagged for a closer look

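The summary lines of the count tables, which enter no comparison, showed a higher share of reads outside annotated genes in Hdac4-knockdown libraries, 4.79% on average, against 3.28% in Control libraries. The shares were 4.64% to 5.07% and 3.17% to 3.41%, and the groups did not overlap.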

How the results depend on the processing

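For Notch2, Notch3, Jag1, Jag2, Dll1, Hes1, Hey1 and Heyl, the direction and the call were unchanged under all 14 alternatives: 3 other normalizations, 2 other filters, DESeq2, limma-voom, the replicate block and the omission of each library in turn. The same held for Notch4 under 13, since a minimum of 10 counts per library excluded it from testing. Notch1 kept its direction under all 14, but its call was lost under 4, with log2 fold changes of 0.12 without a filter beyond 1 count and 0.08 to 0.11 with single libraries left out. Upper quartile factors moved the median log2 fold change of all genes from 0.01 to 0.103, with 6316 genes called higher and 4608 lower, and no Notch gene changed its call. With a log2 fold change threshold of 0.5, 6458 genes were called, and with a threshold of 1, 3940 genes, and 5 in place of 9 Notch genes. The number of Notch genes called was 8 or 9 when single libraries were left out.

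When the fit included replicate number as a block, 5523 genes were called higher and 5441 lower, and 9 Notch genes were called. Same-numbered libraries of the groups had correlations of 0.000626, 0.141 and 0.0207 in their deviations from the group means, and only Control replicate 2 correlated best with its own number, so the numbers were not taken as pairs. At this depth, Heyl, Dll1 and Notch4 in Control libraries rest on few counts, and 11 of the 49 other pathway genes could not be tested.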
